A study of Arabidopsis thaliana and Arabidopsis lyrata subsp. lyrata and Arabidopsis halleri subsp. gemmifera with 10 samples.

Results

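UDP-glycosyltransferases (UGTs) and beta-glucosidases (BGLUs), the enzymes that attach sugars to small molecules and remove them again, were followed in mature leaves of 3 Arabidopsis species and 2 interspecific hybrids. Members were the probe sets assigned to 1 gene whose symbol has the form UGT or BGLU followed by its family number. UGT74B1, a glucosinolate synthesis gene, was left out. This gave 66 genes, 46 UGTs and 20 BGLUs, each with 1 probe set, among 13350 genes with a probe set of their own and 22746 probe sets other than controls. Current gene names hold 58 UGT and 40 BGLU symbols, so neither family was covered in full.

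Leaves were taken before flowering from the Col line of A. thaliana, from A. halleri ssp. gemmifera and A. lyrata ssp. lyrata, and from an A. thaliana-A. lyrata hybrid and an A. thaliana-A. halleri hybrid, called the lyrata hybrid and the halleri hybrid below. No treatment or transgene is labelled, and all plants grew in the same kind of controlled environment under fluorescent light. Each of the 5 groups had 2 biological replicates, 1 Affymetrix ATH1 array each. The sources used here do not give the direction of the crosses, the ploidy of the hybrids or how many plants went into an array. Nothing in the labels says how separately the replicates were grown, so p-values measure the spread between these arrays.

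Plant UGTs transfer a sugar from a UDP-sugar to flavonoids, lignin precursors, hormones and many foreign compounds, which makes these molecules more soluble and often inactive or fit for storage in the vacuole. Plant beta-glucosidases hydrolyse such glucosides and can set free a stored hormone, a lignin precursor or a defence compound. In leaves both families take part in flavonoid pigmentation, hormone balance and chemical defence.

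The arrays carry probes designed on A. thaliana, and mismatches can dim the signal of the relatives and of their alleles in the hybrids even where transcripts are as many. Signals are given in arbitrary units after each array was scaled to the same trimmed mean, and differences are on the log2 scale ± SE. They were fitted with limma to log2(signal + 9.24), an offset that shrinks the differences of weak genes. A difference was called when its Benjamini-Hochberg adjusted p from limma, taken over all probe sets tested, was below 0.05. At the common scale the hybridization spike-ins exceeded their A. thaliana level by 3.64-fold on A. lyrata arrays, by 2.49-fold on A. halleri arrays, and by 1.79-fold and 1.2-fold on those of the lyrata and halleri hybrids. Results on the spike-in scale therefore stand beside the main ones. Counts of called members on that scale and in other alternative settings are given without the share of all probe sets called there. They show only how far the main counts moved. The deposited arrays also fell into 2 scale classes, with A. thaliana replicate 2, A. lyrata and the lyrata hybrid in one and the remaining 5 arrays in the other. Results with the class as a block are given where they differ. Only A. thaliana had arrays in both classes, so its 2 arrays alone set the block. Under the block, comparisons across classes therefore carry the difference between these 2 arrays, and calls kept, lost or gained there depend on it. Of the leaf markers, RCA, PRK and SBPASE had probe sets, and their summed signal lay between 45800 and 125900 on all arrays. Singly they went different ways: in limma's fit against A. thaliana RCA was higher in A. lyrata (1.27, adjusted p = 0.00311), and in A. halleri PRK was lower (-1.04, 0.0146) and SBPASE higher (1.45, 0.0132). Fewer cells of a type and less RNA per cell cannot be told apart in whole leaves.

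Of the 66 members, 43 were bright enough to be tested, namely 31 UGTs and 12 BGLUs. A weak gene entered through the group in which it was bright, so counts over the tested members describe them and support nothing about either family. The 15 UGTs not tested were UGT71B5, UGT71B8, UGT71C1, UGT71C2, UGT71C3, UGT72E3, UGT73B4, UGT73C2, UGT73D1, UGT74F1, UGT76D1, UGT76E1, UGT76E2, UGT76E12 and UGT84B2. Their group means had a median of 12.2 in A. thaliana, 33.1 in A. lyrata and 23.8 in A. halleri. The 8 BGLUs not tested were BGLU24, BGLU29, BGLU31, BGLU32, BGLU36, BGLU41, BGLU45 and BGLU46, with medians of 17.3, 53.4 and 48 in the same order. Over all untested probe sets these medians were 12.9, 36.5 and 31.3, so the untested UGTs lay somewhat below them and the untested BGLUs above. In the lyrata hybrid the untested UGTs had a median of 11.3 and the BGLUs of 18.6, against 22.8 for all untested probe sets, and in the halleri hybrid 24.6 and 20.5 against 19.8. Among those not bright enough to be tested were UGT72E3 and the monolignol glucosidases BGLU45 and BGLU46, which act on the glucosides of lignin precursors. UGT74F1, which glucosylates salicylic acid, was another.

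**Figure D1:**
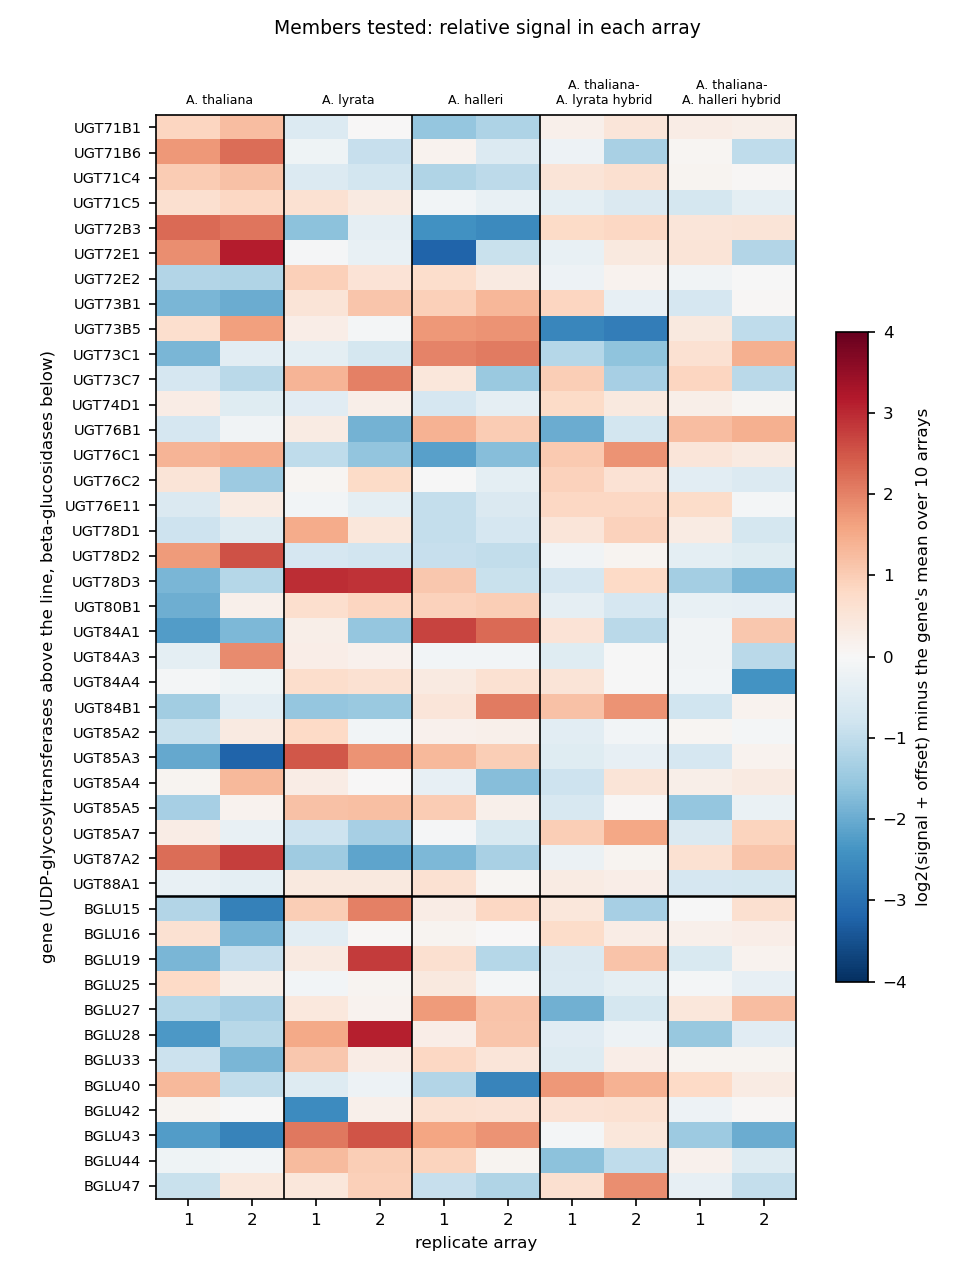
Relative signal of the 43 tested members (rows, UGTs above the black line and BGLUs below it) in each of the 10 arrays (columns, 2 per group). Colour is log2(signal + 9.24) minus the gene's mean over the 10 arrays, red above and blue below it. UGT87A2, UGT78D2 and UGT72B3 are red in the A. thaliana columns, whereas UGT85A3, BGLU43 and BGLU28 are blue there and red in the A. lyrata and A. halleri columns.

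The tested members spread widely over the groups. The range of a gene's 5 group means had a median of 2.43 (log2) for UGTs and 2.59 for BGLUs, against 1.70 for all probe sets tested. The highest group mean of a UGT lay in A. thaliana for 10 of 31 genes, in A. lyrata for 9, in A. halleri for 5, in the lyrata hybrid for 6 and in the halleri hybrid for 1. Among the 12 BGLUs A. thaliana was highest for 1 and lowest for 6, and A. lyrata was highest for 6. Over all probe sets tested A. thaliana was highest for 20.9% and lowest for 33.5%, and A. lyrata was highest for 30.8%. A. halleri was highest for 27.5% of them, the lyrata hybrid for 11.9% and the halleri hybrid for 9.01%. Replicates of A. thaliana differed more than those of the other groups, with a median absolute log2 difference of 0.60 for UGTs and 0.93 for BGLUs, against 0.36 and 0.50 in A. halleri.

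Compared with A. thaliana, A. lyrata leaves had UGT signals called in both directions and BGLU signals called in one. Of 31 UGTs 8 were higher and 8 lower, and of 12 BGLUs 7 were higher and 0 lower, while 43% of all probe sets were called (25.8% higher and 17.2% lower). The median log2 difference was -0.13 for UGTs and 1.39 for BGLUs, beside 0.31 for all probe sets. On the spike-in scale (median of all probe sets -1.57) 2 UGTs were higher and 16 lower, and 3 BGLUs were higher and 3 lower. UGT88A1 changed from higher to lower there, and UGT71C5, UGT73B5, UGT74D1, UGT76E11, UGT84A3, UGT85A4, UGT85A7, BGLU25, BGLU40 and BGLU42, not called on the main scale, were lower. The filter also moved with the scale: UGT73C7 and BGLU19 dropped out and UGT73D1 came in, so 31 UGTs and 11 BGLUs were tested on it. A. lyrata had the dimmest deposited arrays, with trimmed means of 32.8 and 24.3.

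A. halleri leaves showed UGT calls in both directions as well. Of 31 UGTs 8 were higher and 9 lower than in A. thaliana, and of 12 BGLUs 5 were higher and 1 lower, while 39.7% of all probe sets were called (23.5% higher and 16.2% lower). Medians were 0.26 for UGTs, 0.90 for BGLUs and 0.32 for all probe sets. With spike-in scaling 4 UGTs were higher and 15 lower and 2 BGLUs were higher and 3 lower (median of all probe sets -1.02). The lower ones there included UGT73D1, which is not among the 31 (-2.43, adjusted p = 0.0466), and UGT74D1, UGT76E11, UGT78D1, UGT84A3, UGT85A4, BGLU25 and BGLU47, not called on the main scale. Quantile normalization gave 6 UGTs higher and 10 lower and 3 BGLUs higher and 1 lower. Both species were set against the same A. thaliana arrays, so calls in the same direction in both are not independent of each other, and the values are given side by side without a count of shared calls.

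**Figure D2:**
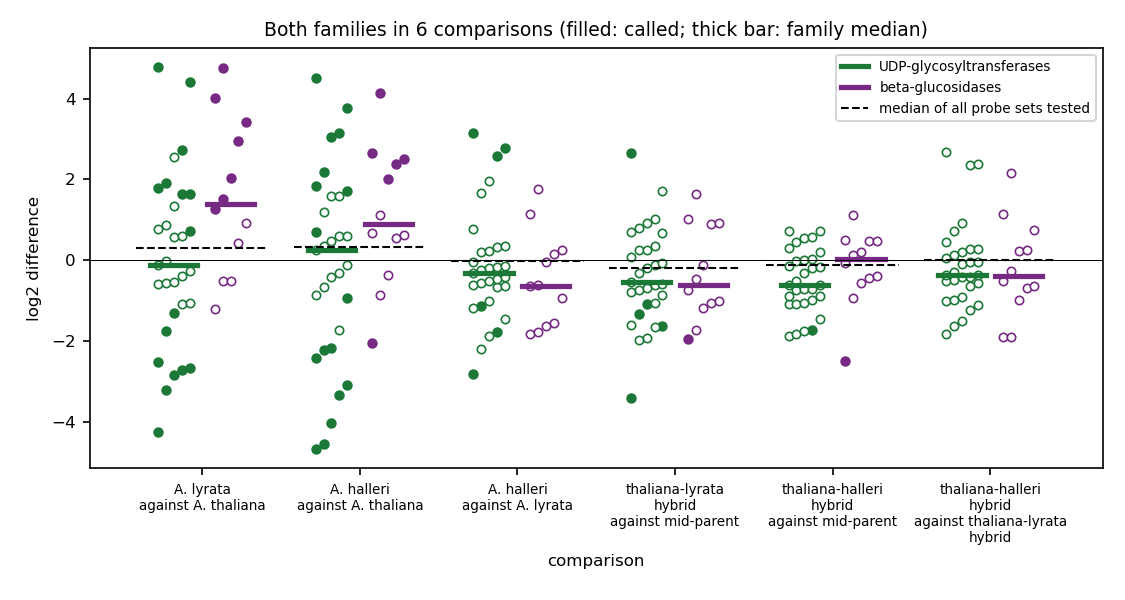
Log2 differences of the tested UGTs (green) and BGLUs (purple) in 6 comparisons, with filled points called and open points not called. Thick bars are family medians and dashed lines the median of all 16656 probe sets tested. In A. lyrata against A. thaliana the BGLU median lies at 1.39 and the UGT median at -0.13, while no point is filled in the comparison of the hybrids with each other.

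Among the flavonoid glycosyltransferases, the 3 UGT78D genes went different ways. UGT78D2, the flavonoid 3-O-glucosyltransferase that acts on flavonols and anthocyanins, was at 2710 and 4932 in A. thaliana, 520 and 488 in A. lyrata and 434.8 and 414.8 in A. halleri. Both A. thaliana arrays lay far above all others, including 747 and 899.3 in the lyrata hybrid and 630.3 and 592.7 in the halleri hybrid. The log2 difference from A. thaliana was -2.84 ± 0.31 in A. lyrata (limma adjusted p = 0.000222) and -3.08 ± 0.31 in A. halleri (0.000176). UGT78D3, which adds arabinose to flavonols, was at 3.264 and 11.22 in A. thaliana, 335.8 and 322.1 in A. lyrata, 86.13 and 14.77 in A. halleri, 18.96 and 67.81 in the lyrata hybrid and 8.245 and 3.622 in the halleri hybrid. It stood out in A. lyrata, whose arrays overlapped no others, by 4.40 ± 0.80 over A. thaliana (adjusted p = 0.00246). Its difference in A. halleri was not called (1.58 ± 0.80, adjusted p = 0.138), and A. halleri lay below A. lyrata by -2.82 ± 0.80 (adjusted p = 0.0408).

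UGT78D1, which adds rhamnose to flavonols, was at 1066 and 1339 in A. thaliana, 5358 and 2634 in A. lyrata and 988.5 and 1205 in A. halleri. The lower A. lyrata array was still above every array of the other species, with differences of 1.65 ± 0.42 from A. thaliana (adjusted p = 0.0116) and -1.78 ± 0.42 for A. halleri against A. lyrata (adjusted p = 0.0197). The lyrata hybrid, at 2698 and 3675, overlapped A. lyrata, and the halleri hybrid was at 2397 and 1168. On the spike-in scale UGT78D1 in A. lyrata turned to -0.21 against A. thaliana, whereas UGT78D3 kept its call (3.04). Without A. lyrata replicate 1 the UGT78D1 call was lost (adjusted p = 0.0897).

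Of 15 flavonoid and anthocyanin synthesis genes listed for comparison, DFR and AT5MAT had probe sets, and neither was called in any comparison. DFR, which makes leucoanthocyanidins, was at 12.92 and 13380 in the A. thaliana arrays and between 52.7 and 404.5 on the other 8. AT5MAT, an anthocyanin malonyltransferase, was at 33.68 and 547.4 in A. thaliana. UGT78D2 was likewise brighter in A. thaliana replicate 2 than in replicate 1, but its replicate 1 alone, at 2710, was above all 8 other arrays.

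Among the UGTs of phenylpropanoids, UGT72B3 and UGT72E1 were lower and UGT72E2 higher in both relatives, and UGT84A1 was higher in A. halleri. UGT72B3, a close relative of the lignin-related UGT72B1, was at 553.1 and 505.2 in A. thaliana, 28.08 and 81.78 in A. lyrata, 12.83 and 10.96 in A. halleri, 189.5 and 199.3 in the lyrata hybrid and 154.7 and 160.2 in the halleri hybrid. No 2 species overlapped, and both hybrids lay between their parents. The difference from A. thaliana was -3.21 ± 0.47 in A. lyrata (adjusted p = 0.000893) and -4.67 ± 0.47 in A. halleri (0.000175), and that between the relatives was not called (-1.46 ± 0.47, adjusted p = 0.064).

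UGT72E1, which glucosylates coniferyl and sinapyl aldehydes, was at 432.3 and 1054 in A. thaliana, 109.5 and 88.77 in A. lyrata and 3.856 and 56.49 in A. halleri. A. thaliana was the highest group but its arrays, like those of A. halleri, were far apart. Differences were -2.67 ± 0.82 in A. lyrata (adjusted p = 0.0254), a call lost without A. thaliana replicate 2 or either A. lyrata array (adjusted p up to 0.124), and -4.55 ± 0.82 in A. halleri (0.00276). UGT72E2, which glucosylates monolignols, went the other way, from 63.32 and 61.95 in A. thaliana to 303.7 and 225.6 in A. lyrata and 257.6 and 200.2 in A. halleri (1.92 ± 0.36 and 1.72 ± 0.36, adjusted p = 0.00298 and 0.00562). Its spike-in values, 0.19 and 0.51, were not called.

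UGT84A1 makes glucose esters of hydroxycinnamic acids. It was at 4.835 and 9.575 in A. thaliana, 67.77 and 13.17 in A. lyrata, 421.3 and 308.3 in A. halleri, 86.11 and 22.29 in the lyrata hybrid and 50.63 and 129.1 in the halleri hybrid. A. halleri lay above all other groups, by 4.51 ± 0.77 over A. thaliana (adjusted p = 0.00223) and 3.15 ± 0.77 over A. lyrata (0.0234). The related UGT84A3 and UGT84A4 were not called in either species (-0.53 and 0.77 in A. lyrata, -0.85 and 0.61 in A. halleri). For UGT84A3 the A. thaliana arrays were at 361.1 and 1784, with all other arrays between 223.6 and 571.3.

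Of 20 listed genes of phenylpropanoid and monolignol synthesis, 3 had probe sets and 2 were tested. HCT, the shikimate transferase of that pathway, was lower in A. lyrata (-1.83 ± 0.31, adjusted p = 0.00168) and A. halleri (-1.80 ± 0.31, 0.00213). ALDH2C4, which makes ferulic and sinapic acid, was lower in A. halleri, by -1.59 ± 0.25 against A. thaliana (0.00131), and gave 0.01 in A. lyrata. USP, the only measured gene of 16 for UDP-sugar supply, was not called in any comparison.

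UGTs that conjugate hormones differed as well. UGT71B6, an abscisic acid glucosyltransferase, was at 159.3 and 230.2 in A. thaliana and lower on all other arrays, at 35.61 and 17.83 in A. lyrata and 47.11 and 25.83 in A. halleri. Its differences were -2.53 ± 0.67 (adjusted p = 0.014, up to 0.0835 without A. thaliana replicate 2 or A. lyrata replicate 2) and -2.18 ± 0.67 (0.0281, up to 0.139 without any 1 of the 4 arrays compared). UGT71C5, also an abscisic acid glucosyltransferase, was at 420.6 and 484.2 in A. thaliana, 409.6 and 345.4 in A. lyrata and 250.2 and 218 in A. halleri. It was called in A. halleri (-0.92 ± 0.31, adjusted p = 0.0378), a call kept with only 2 of the 10 arrays left out in turn (up to 0.152), and not in A. lyrata (-0.26 ± 0.31, 0.518). The difference between the relatives was not called (-0.67 ± 0.31, 0.175). UGT71C5 was lower in both species on the spike-in scale (-2.08 and -2.21, adjusted p = 0.000657 and 0.000726).

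The cytokinin N-glucosyltransferases UGT76C1 and UGT76C2 are neighbours on the chromosome and differed in pattern. UGT76C1 was at 338.3 and 361.1 in A. thaliana, 57.99 and 35.61 in A. lyrata, 20.93 and 32.05 in A. halleri, 267.4 and 457 in the lyrata hybrid and 177.8 and 162.2 in the halleri hybrid. Both relatives were below the other 3 groups, by -2.71 ± 0.43 (adjusted p = 0.00125) and -3.35 ± 0.43 (0.000516) against A. thaliana. UGT76C2, at 294.2 and 67.32 in A. thaliana, 210.9 and 346.6 in A. lyrata and 199.1 and 150 in A. halleri, was not called (0.88 ± 0.58 and 0.26 ± 0.58). UGT73C1, which can O-glucosylate cytokinins in vitro, was at 4.371 and 27.08 in A. thaliana, 27.18 and 20.59 in A. lyrata and 181.8 and 195.8 in A. halleri. A. halleri was above every other array, by 3.15 ± 0.65 over A. thaliana (adjusted p = 0.00514) and 2.59 ± 0.65 over A. lyrata (0.026).

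Of the auxin conjugating genes, UGT84B1, an indole-3-acetic acid glucosyltransferase, was at 6.911 and 22.56 in A. thaliana, 5.37 and 6.173 in A. lyrata, 50.06 and 169.7 in A. halleri, 87.66 and 138.1 in the lyrata hybrid and 15.17 and 37.69 in the halleri hybrid. A. halleri and the lyrata hybrid overlapped each other and lay above the other 3 groups. A. halleri was higher than A. thaliana by 2.18 ± 0.74 (adjusted p = 0.0403) and than A. lyrata by 2.78 ± 0.74 (0.0323). The first call was lost on the spike-in scale (1.22) and when any of 6 arrays was left out, among them both A. thaliana arrays. Without lyrata hybrid replicate 2 UGT84B1 was too weak to be tested. UGT74D1, which glucosylates auxins, was between 652.1 and 1762 on all arrays and was not called in the species, but was lower in both on the spike-in scale (-1.86 and -1.73, adjusted p = 0.000566 and 0.00141). UGT76B1, which conjugates isoleucic acid and salicylic acid, was not called either (-0.38 and 1.59), at 54.67 and 4.584 in the A. lyrata arrays. Of 22 listed genes for hormone inactivation by other enzymes, 3 were tested. BSMT1, which makes methyl salicylate and methyl benzoate, was the only one called, higher in A. lyrata than in A. thaliana (5.07 ± 0.74, adjusted p = 0.000836) and lower in A. halleri than in A. lyrata (-3.63 ± 0.74, 0.0107).

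**Figure D3:**
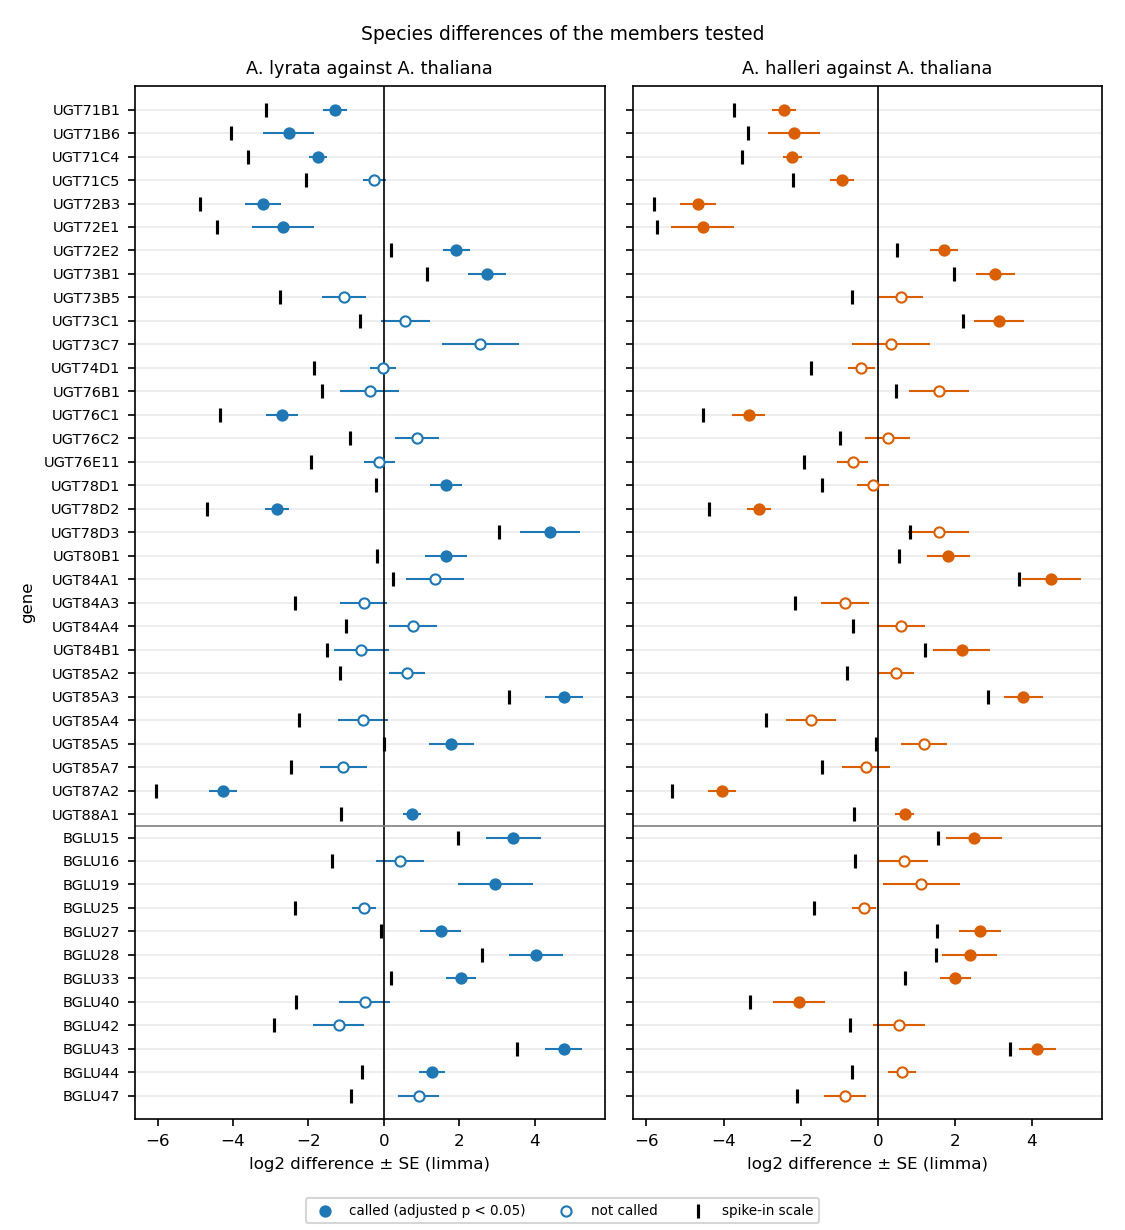
Log2 differences ± SE (limma, 2 arrays a group) of the tested members in A. lyrata (left) and A. halleri (right) against A. thaliana, filled where called. Black ticks give the value on the spike-in scale where the probe set was tested there. UGT87A2 and UGT72B3 lie far left and UGT85A3 and BGLU43 far right on both scales, whereas the tick of UGT78D1 in A. lyrata is at -0.21.

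UGT87A2, a glucosyltransferase known to affect flowering time through FLC, had the lowest adjusted p of all members in both species. It was at 2070 and 3033 in A. thaliana, 156.6 and 94.52 in A. lyrata, 119.8 and 172.2 in A. halleri, 369.9 and 472.8 in the lyrata hybrid and 677.3 and 948.5 in the halleri hybrid. The relatives overlapped each other at the bottom, the hybrids lay between, and A. thaliana stood apart at the top. Differences from A. thaliana were -4.26 ± 0.37 in A. lyrata (adjusted p = 6.79e-05) and -4.04 ± 0.37 in A. halleri (0.000103).

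In the UGT85A group the largest difference was that of UGT85A3. Its signals were 23.69 and 5.629 in A. thaliana, 763.4 and 470 in A. lyrata, 329.2 and 262.3 in A. halleri, 88.52 and 101.2 in the lyrata hybrid and 77.51 and 142 in the halleri hybrid. The hybrid arrays lay between those of A. thaliana and those of both relatives, and the differences from A. thaliana were 4.78 ± 0.50 (adjusted p = 0.000179) and 3.78 ± 0.50 (0.000646). UGT85A5 was at 64.94 and 194.4 in A. thaliana and at 405.6 and 420.6 in A. lyrata (1.78 ± 0.59, adjusted p = 0.0356), which on the spike-in scale was 0.00. That call was lost without A. thaliana replicate 1 or either A. lyrata array (adjusted p up to 0.182). UGT85A2, UGT85A4 and UGT85A7 were not called in either species.

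UGT73B1 was at 23.2 and 19.83 in A. thaliana, 156.9 and 240.5 in A. lyrata and 215.4 and 279.7 in A. halleri. Both relatives were above it, by 2.73 ± 0.51 (adjusted p = 0.0029; spike-in scale 1.15, not called) and 3.05 ± 0.51 (0.00201; spike-in scale 1.98, called). UGT80B1, a sterol glucosyltransferase also known as TRANSPARENT TESTA 15, was at 113.9 and 540.8 in A. thaliana, 747.6 and 858 in A. lyrata and 896.2 and 937.7 in A. halleri. It was higher in A. lyrata by 1.64 ± 0.56 (adjusted p = 0.0386), which turned to -0.18 on the spike-in scale and stayed called only without A. thaliana replicate 2 when arrays were left out in turn (up to 0.155). It was higher in A. halleri by 1.83 ± 0.56 (0.0273), a call lost on the spike-in scale (0.55, adjusted p = 0.5) and without A. thaliana replicate 1 or either A. halleri array (up to 0.108).

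UGT88A1, between 3197 and 7903 on all arrays, was higher in A. lyrata (0.74 ± 0.24, adjusted p = 0.0341) and A. halleri (0.70 ± 0.24, 0.0436), but on the spike-in scale it was called lower in A. lyrata (-1.13, 0.00609) and was at -0.61 in A. halleri (0.103). The main calls were kept with 5 and 2 of the 10 arrays left out in turn (up to 0.112 and 0.262). UGT71B1 and UGT71C4 were lower in both relatives. UGT71B1 was at 805.7 and 1054 in A. thaliana, 303.3 and 448.1 in A. lyrata and 146.1 and 182.4 in A. halleri (-1.30 ± 0.31 and -2.43 ± 0.31, adjusted p = 0.00925 and 0.000538), and the first call was lost without A. lyrata replicate 1 (0.0611). UGT71C4 was at 1661 and 1848, 552.6 and 478.5, and 350.1 and 388.3 in the same order (-1.75 ± 0.25 and -2.22 ± 0.25, adjusted p = 0.0007 and 0.000269).

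**Figure D4:**
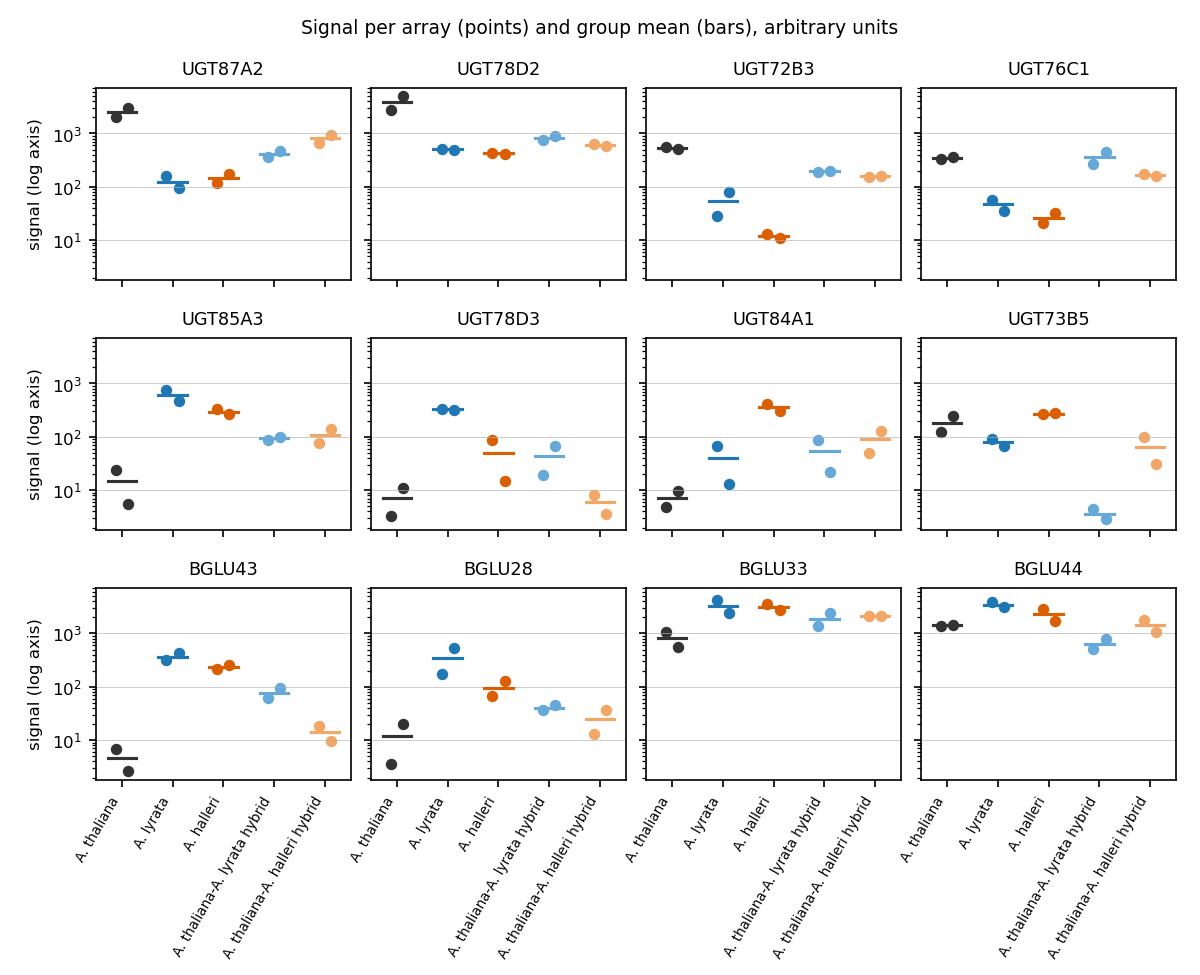
Signal of 12 members in each array (points) with the mean of each group's 2 arrays (bars), on a log axis in arbitrary units. UGT73B5 is at 4.364 and 2.835 in the lyrata hybrid, below all its other arrays, and UGT84A1 at 421.3 and 308.3 in A. halleri, above all its other arrays.

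Among the beta-glucosidases, BGLU43 differed most between the species. It was at 6.752 and 2.621 in A. thaliana, 313.3 and 423.7 in A. lyrata, 217.4 and 252.1 in A. halleri, 61.94 and 93.83 in the lyrata hybrid and 18.3 and 9.758 in the halleri hybrid. No groups overlapped, with A. thaliana lowest and A. lyrata highest. Differences from A. thaliana were 4.76 ± 0.49 in A. lyrata (adjusted p = 0.00016; spike-in scale 3.52) and 4.14 ± 0.49 in A. halleri (0.000359; spike-in scale 3.44). Its neighbour BGLU44, which has mannosidase activity, was at 1399 and 1454 in A. thaliana, 3819 and 3131 in A. lyrata and 2893 and 1691 in A. halleri. It was called in A. lyrata (1.27 ± 0.36, adjusted p = 0.0177), with -0.58 on the spike-in scale and an adjusted p of 0.0925 without A. lyrata replicate 1, and not in A. halleri (0.63 ± 0.36, 0.18).

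BGLU28, known for breaking down glucosinolates under sulfur deficiency, was at 3.572 and 19.93 in A. thaliana, 172.1 and 532.4 in A. lyrata and 66.81 and 126.2 in A. halleri. BGLU15, which hydrolyses flavonol bisglycosides, lies next to it and was at 34.57 and 5.804, 183.4 and 387.5, and 111.8 and 166.4 in the same order. For both genes all arrays of the relatives were above both A. thaliana arrays. BGLU28 was higher by 4.02 ± 0.72 in A. lyrata (adjusted p = 0.0023) and 2.39 ± 0.72 in A. halleri (0.0254), and BGLU15 by 3.43 ± 0.73 (0.0051) and 2.51 ± 0.73 (0.0222). On the spike-in scale both stayed called in A. lyrata (2.59 and 1.97) and not in A. halleri (adjusted p = 0.133 and 0.0976). In A. halleri both calls were also lost without either A. halleri array, that of BGLU28 without A. thaliana replicate 1 (adjusted p up to 0.141) and that of BGLU15 without replicate 2 (up to 0.115).

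BGLU33, which releases abscisic acid from its glucose ester in the vacuole, was at 1073 and 549.2 in A. thaliana, 4195 and 2441 in A. lyrata, 3513 and 2775 in A. halleri, 1381 and 2392 in the lyrata hybrid and 2152 and 2137 in the halleri hybrid. A. thaliana was lowest and did not overlap any group, and the differences were 2.05 ± 0.40 (adjusted p = 0.00364) and 2.01 ± 0.40 (0.00452). On the spike-in scale they shrank to 0.19 and 0.70 and were not called. The abscisic acid glucosyltransferase UGT71B6 was lower in both relatives, by -2.53 and -2.18 on the main scale. It was at -4.04 and -3.37 on the spike-in scale, which lowers the values of both relatives. UGT71C5, the other such enzyme, was at -0.26 in A. lyrata, not called, and at -0.92 in A. halleri on the main scale. A link between these genes was not tested.

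BGLU27 was at 34 and 28.03 in A. thaliana, 116.2 and 94.69 in A. lyrata and 298.7 and 198.9 in A. halleri. Its call in A. halleri (2.66 ± 0.54, adjusted p = 0.0048) stood on the spike-in scale (1.53), while that in A. lyrata (1.51 ± 0.54, 0.0462) turned to -0.08 there and was kept with only 2 of the 10 arrays left out in turn (adjusted p up to 0.143). BGLU19 was at 2.073 and 12.04 in A. thaliana and 42.04 and 273.3 in A. lyrata (2.96 ± 1.01, adjusted p = 0.0383), where the A. lyrata arrays were far apart. It was not bright enough to be tested on the spike-in scale, and the call was lost without either A. thaliana array or either halleri hybrid array (up to 0.132). Without A. lyrata replicate 2 it was too weak to be tested.

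BGLU40 was the only BGLU called lower in a species against A. thaliana on the main scale. Its signals were 1361 and 272.8 in A. thaliana and 240 and 80.89 in A. halleri, so the 2 groups were separated by less than the A. thaliana arrays were from each other. The difference was -2.05 ± 0.68 (adjusted p = 0.037) and was kept with only 2 of the 10 arrays left out in turn (up to 0.233). BGLU16 (625.2 and 105.4 in A. thaliana), BGLU25, BGLU42, known from induced resistance in roots, and BGLU47 were not called in either species. With spike-in scaling BGLU25 was lower in both (-2.35 and -1.66, adjusted p = 0.000174 and 0.00228), BGLU40 and BGLU42 in A. lyrata (-2.33 and -2.90, 0.0087 and 0.00215) and BGLU47 in A. halleri (-2.10, 0.0142). Within 1 scale class, that is against the A. thaliana array of the same class alone, A. lyrata had 6 BGLUs higher and 0 lower, and A. halleri 4 higher and 1 lower. The calls of UGT80B1, UGT85A5, BGLU19 and BGLU27 in A. lyrata and those of UGT71B6, UGT71C5, UGT84B1, UGT88A1 and BGLU15 in A. halleri were lost with the class as a block.

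Of 12 listed genes of other myrosinase-type glucosidases, specifier proteins and ER bodies, 3 were measured. PYK10, the main ER body beta-glucosidase of roots, was the only one called, at 3.195 and 3.043 in A. thaliana and 93.73 and 136.5 in A. lyrata (3.31 ± 0.96, adjusted p = 0.0207). A. halleri was at 115.7 and 5.848. EXPA7, the only measured root marker of 4 listed, was at 19.28 to 55.88 in A. thaliana, 67.12 to 181.7 in A. lyrata and 170.2 to 181.9 in A. halleri, and its part in the BGLU differences was not tested. Of the 5 flower markers none had a probe set. The senescence markers WRKY53 and SAG101, 2 of 5 listed, summed to 1330 to 2185 in A. thaliana, 170.4 to 190.8 in A. lyrata and 158.3 to 223.6 in A. halleri, and moved with the UGTs that were lower in both relatives. Their part in those differences was not tested. SWEET11, the only measured vascular marker of 5, was at 6361 to 11870 in A. thaliana, 9797 to 11600 in A. lyrata and 841.8 to 1291 in A. halleri. TRY, the 1 measured trichome marker of 4, was lower in A. lyrata (-1.76, adjusted p = 0.00275), at 211.7 to 276.8 against 705.5 to 999.1 in A. thaliana and 641.4 to 771.7 in A. halleri. FMA, the 1 measured guard cell marker of 4, was at 131.5 to 144.6 in A. thaliana and higher in A. lyrata, at 339.7 to 352.6 (1.27, adjusted p = 0.00643), and in A. halleri, at 356.6 to 415.4 (1.42, 0.00437). The part of these 3 markers in the member differences was not tested.

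A. halleri and A. lyrata were closer to each other. A. halleri had 3 of 31 UGTs higher and 3 lower than A. lyrata, with 0 of 12 BGLUs called, beside 15.5% of all probe sets (8.13% higher and 7.38% lower). UGT84A1, UGT84B1 and UGT73C1 were the higher ones, and UGT78D3, UGT78D1 and UGT71B1 (-1.13 ± 0.31, adjusted p = 0.0378) the lower ones. In limma's fit 4 BGLUs had an unadjusted p below 0.05, a threshold at which no share of all probe sets was taken. The smallest adjusted p of a BGLU was 0.053 for BGLU47 (-1.77 ± 0.54), at 322.3 and 456.7 in A. lyrata and 118.1 and 94.54 in A. halleri. On the spike-in scale the 3 higher UGTs kept their calls (3.40, 2.74 and 2.83) and the 3 lower ones lost theirs (-2.19, -1.23 and -0.59). UGT73B5 (2.10, limma adjusted p = 0.0452) and BGLU42 (2.18, 0.0338), not called on the main scale, were higher in A. halleri there. The species lay in different scale classes, and with the class as a block UGT73C1 alone of the 6 stayed called (adjusted p = 0.0436). That block was set by the 2 A. thaliana arrays alone. All 6 calls depended on single arrays. None of them was kept without A. halleri replicate 2. Without A. halleri replicate 1 only UGT78D3 and UGT84B1 kept theirs, and without A. lyrata replicate 2 only UGT78D1.

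Many members lie beside a relative on the chromosome. By the RefSeq gene order, 12 pairs of tested members had at most 2 genes and no other member between them. Pairs with another member between them, such as UGT85A7 and UGT85A5, were not counted. UGT85A2, UGT85A5 and UGT84A3 each belong to more than 1 pair. No rate was taken for other neighbouring genes, and 43% of all probe sets were called in A. lyrata and 39.7% in A. halleri. The counts therefore describe these pairs alone. In A. lyrata 4 pairs were called in the same direction, 1 in opposite directions, 4 with 1 gene called and 3 with neither. The pairs that moved alike were UGT85A5 with UGT85A3, BGLU15 with BGLU28, BGLU43 with BGLU44, and UGT71B1 with UGT71B6. UGT78D3 (4.40) and UGT78D2 (-2.84) were the opposite pair. In A. halleri 3 pairs moved alike, 6 had 1 gene called, among them UGT84A1 with UGT84A3, and 3 had neither. Of each pair UGT76C2 and UGT76C1 and BGLU27 and BGLU16, 1 gene was called in both species and its neighbour in none. Probe sets of close relatives can cross-hybridize, and the labels give no measure of it.

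Hybrid leaves were set against the mid-parent level, the mean of the parents' signals on the linear scale. In the lyrata hybrid 1 UGT was above and 4 below it, and 0 BGLUs were above and 1 below, beside 5.39% of all probe sets (1.67% above and 3.72% below). Medians were -0.55 for UGTs and -0.61 for BGLUs against -0.18 for all. In the halleri hybrid 0 UGTs were above and 1 below, and 0 BGLUs above and 1 below, beside 1.09% of all probe sets (0.396% above and 0.69% below). Medians were -0.61, 0.03 and -0.12 in the same order. Both mid-parents hold the same A. thaliana arrays. The 6 calls of the lyrata hybrid became 2 with quantile normalization, 0 without lyrata hybrid replicate 1, 10 without A. thaliana replicate 1 and 2 to 4 without any other single array. The 2 calls of the halleri hybrid became 5 without A. thaliana replicate 1, stayed at 2 without replicate 2 and became 0 without any 1 of the other 8 arrays, which all enter the estimate of the spread.

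Listed genes outside the families deviated too. In limma's fit of the lyrata hybrid the senescence marker WRKY53 was below mid-parent, at 95.04 and 122.8 (-2.54, adjusted p = 0.0195), and so was BSMT1 (-3.13, 0.0388). HCT (1.43, adjusted p = 0.0225) and the leaf marker PRK (1.55, 0.0105) were above it and above all parent arrays. In the halleri hybrid PRK was above (1.39, adjusted p = 0.036). The part of these genes' differences in the members' deviations was not tested.

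**Figure D5:**
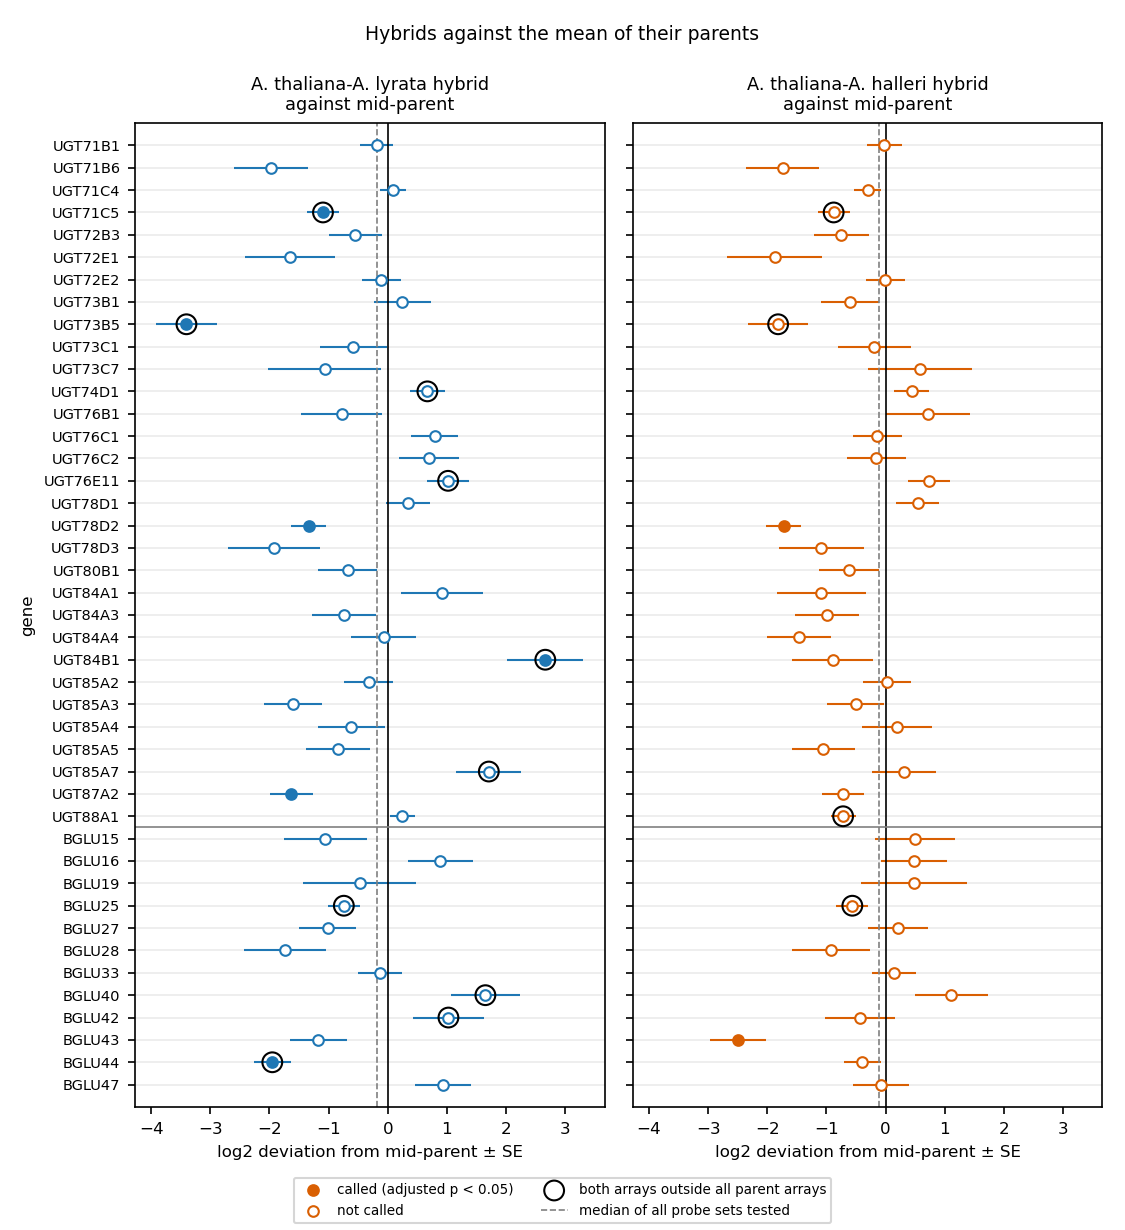
Deviation of each tested member from the mid-parent level (log2 ± SE) in the lyrata hybrid (left) and the halleri hybrid (right), filled where called. Rings mark members whose 2 hybrid arrays both lay outside all 4 parent arrays, and the dashed line is the median of all probe sets tested. UGT73B5 at -3.40 and UGT84B1 at 2.67 are the extremes in the lyrata hybrid.

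UGT73B5, which takes part in redox-related defence against pathogens, was nearly undetected in the lyrata hybrid. It was at 4.364 and 2.835 there, 122.7 and 245.8 in A. thaliana, 90.28 and 68.39 in A. lyrata, 266.2 and 275.5 in A. halleri and 97.83 and 31.16 in the halleri hybrid. Both lyrata hybrid arrays were below every other array, and the deviation was -3.40 ± 0.51 (adjusted p = 0.00988; spike-in scale -3.92). It was lost only without lyrata hybrid replicate 1 (adjusted p = 0.0951). In the halleri hybrid both arrays were below all parent arrays too, but the deviation was not called (-1.82 ± 0.50, adjusted p = 0.118), and the difference between the hybrids' deviations was not called (1.59 ± 0.65, 0.411).

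BGLU44 was lower in the lyrata hybrid, at 500.7 and 777.4, than on every parent array. The deviation was -1.95 ± 0.32 (adjusted p = 0.0129; spike-in scale -1.75), lost only without lyrata hybrid replicate 1 (0.152). In the halleri hybrid BGLU44 was at 1754 and 1087, with 1 array within the range of its parents and 1 below it (-0.40 ± 0.31, adjusted p = 0.585), and the difference between the deviations was not called (1.56 ± 0.43, 0.159).

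UGT84B1 was the 1 member called above mid-parent. It was bright enough to be tested only through the lyrata hybrid, so this call was not independent of its entry into the tests. Both lyrata hybrid arrays, at 87.66 and 138.1, were above all 4 parent arrays, the brightest of which was at 22.56 (2.67 ± 0.64, adjusted p = 0.0443). On the spike-in scale (2.44, adjusted p = 0.0783) and with the class as a block (2.35, 0.0664) it was not called. With arrays left out in turn, the call was kept in only 2 of the 9 fits that tested it. Without lyrata hybrid replicate 2 UGT84B1 was too weak to be tested. In the halleri hybrid it was at -0.89 ± 0.68, and the difference between the deviations, -3.56 ± 0.91, had the smallest adjusted p of any member (0.126).

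UGT71C5 was at 200.6 and 177.7 in the lyrata hybrid and 162.6 and 203.7 in the halleri hybrid. All 4 hybrid arrays were below every array of A. thaliana, A. lyrata and A. halleri. It was called in the first (-1.10 ± 0.27, adjusted p = 0.0454) and not in the second (-0.88 ± 0.27, 0.152). UGT87A2 (-1.63 ± 0.36, adjusted p = 0.0331) and UGT78D2 (-1.33 ± 0.29, 0.0331) were below mid-parent in the lyrata hybrid while within the range of the parents' arrays. UGT78D2 was also called in the halleri hybrid (-1.72 ± 0.30, 0.0359), and UGT87A2 was not (-0.72 ± 0.36, 0.361). On a mid-parent taken on the log2 scale UGT73B5, UGT84B1, UGT71C5 and BGLU44 in the lyrata hybrid kept their calls. UGT78D2 (-0.73, adjusted p = 0.144) and UGT87A2 (-0.43, 0.466) in the lyrata hybrid and UGT78D2 in the halleri hybrid (-1.02, 0.0851) lost theirs. UGT71C5 and UGT78D2 in the lyrata hybrid each kept their call with only 1 of the 10 arrays left out (adjusted p up to 0.236 and 0.255), and UGT87A2 with 2 (up to 0.253).

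BGLU43, at 18.3 and 9.758, was the 1 BGLU called in the halleri hybrid, above A. thaliana (6.752 and 2.621) and far below A. halleri (217.4 and 252.1). Its deviation was -2.49 ± 0.48 (adjusted p = 0.0455; spike-in scale -1.74 and log2 mid-parent -1.34 with adjusted p = 0.138, both not called), and that in the lyrata hybrid was -1.18 ± 0.48 (0.181). Both calls of the halleri hybrid, UGT78D2 and BGLU43, were kept with only 2 of the 10 arrays left out in turn (up to 0.282 and 0.325), those 2 being the A. thaliana arrays.

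Members whose hybrid arrays both lay outside all parent arrays were 4 UGTs above and 2 below in the lyrata hybrid, against 7.73% and 7.88% of all probe sets tested. Those above were UGT84B1, UGT76E11, UGT85A7 and UGT74D1, and those below UGT71C5 and UGT73B5. Among BGLUs, BGLU42 and BGLU40 were above, and BGLU44 and BGLU25 below. UGT76E11 was at 536.6 and 536.8 against parent arrays between 196.3 and 374.2 (1.02 ± 0.35, adjusted p = 0.122). BGLU40 was at 1853 and 1479 against 272.8 to 1361 (1.65 ± 0.59, 0.133). In the halleri hybrid no member was above, and UGT71C5, UGT88A1, UGT73B5 and BGLU25 were below, while 7.16% and 6.74% of all probe sets were above and below.

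Set directly against each other, the hybrids differed in no member in limma's fit, beside 2.65% of all probe sets called (1.93% higher and 0.72% lower in the halleri hybrid). At an unadjusted p below 0.05 there were 8 UGTs and 4 BGLUs, with no share of all probe sets taken at that threshold. The smallest adjusted p was that of UGT73B5 (2.36 ± 0.58, 0.0676). UGT88A1, at 6530 and 6277 in the lyrata hybrid and 3258 and 3197 in the halleri hybrid, gave -0.99 ± 0.24 (0.069), and BGLU27, at 15.69 and 49.07 against 119.4 and 214.8, gave 2.16 ± 0.54 (0.0733). For each of these genes the arrays of the hybrids did not overlap. With spike-in scaling 3 UGTs and 2 BGLUs were called, all higher in the halleri hybrid. By construction that scaling raises the values of the halleri hybrid against the lyrata hybrid, and the share of all probe sets called there is not given. With the class as a block 1 UGT was higher and 1 lower and 2 BGLUs were lower. The hybrids lay in different classes, so the block counts carry the difference between the 2 A. thaliana arrays. The deviations from mid-parent also differed between the hybrids in no member, beside 1.04% of all probe sets called. At an unadjusted p below 0.05 there were 4 UGTs and 1 BGLU, again without a share of all probe sets.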

How the data were processed

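The authors deposited a linear intensity for each probe set, computed with GCOS and MAS5 per the submitters' processing notes (versions: not given in the sources used here). Groups came from sample titles. Because 5 deposited arrays were not at a 2% trimmed mean of 500, all 10 were brought to it. A probe set entered the tests if any group's mean log2 signal reached 104, the 40th percentile, and 16656 did. The 10th percentile, 9.24, was added before taking log2. A limma 3.58.1 model of 5 group means, with an intensity trend in eBayes, was fitted to all 10 arrays in R 4.3.3 (residual df 5, prior df 4.72). The SE of a mid-parent deviation was obtained with the delta method. Arrays give no read depth, and their number limits the precision. The procedure was tested on simulated data.

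Gene names came from a partial platform table (13513 probe sets with 1 gene, 503 with several, 8730 unnamed here). Of the first, 13436 matched RefSeq genes of assembly TAIR10.1, used for names and neighbours alone. The series names no build, so no coordinates or sequences are printed. In each comparison up to 6 called members per family and direction with the largest differences were named in full, other members with group or array values, and of each gene list at most 2 called genes by adjusted p. Members and lists were chosen with earlier results of these data known. Alternatives changed the scaling, offset, filter, threshold, mid-parent, arrays in the fit, scale class, probe sets and replicate block.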

Additional observations from a re-analysis of the deposited data

How the results depend on the processing

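Counts of called members in A. lyrata and A. halleri against A. thaliana (23 each) stayed within 1.5 times under every alternative run with all arrays except a threshold of 0.01, which gave 14 and 15. For A. halleri against A. lyrata (6) that threshold gave 0. The lyrata hybrid against mid-parent (6) gave 2 with quantile normalization, 10 with the scale class as a block, 1 at 0.01 and 2 with only the groups compared in the fit. The halleri hybrid against mid-parent (2) gave 1 with spike-in scaling, an offset of 1, no filter, a filter at the 60th percentile or within 1 scale class, and 0 at 0.01, with a log2 mid-parent or with only the groups compared. The hybrids against each other (0) gave 5 with spike-in scaling, 1 with an offset of 1, 4 with the class as a block and 3 with only the groups compared. The difference between the hybrids' deviations stayed at 0. Leaving out each array in turn gave 16 to 23, 16 to 22, 0 to 8, 0 to 10, 0 to 5, 0 to 3 and 0 to 0 in the order of these 7 comparisons. In the first 4 the lowest counts came without A. lyrata replicate 1, A. halleri replicate 2 and lyrata hybrid replicate 1, and the count of 10 came without A. thaliana replicate 1. Of the 60 calls, 28 survived the removal of any single array. Quantile normalization kept 49 of 59, spike-in scaling 38 of 59 and the class block 45 of 60. Spike-in scaling reversed UGT78D1 (-0.21), UGT80B1 (-0.183), UGT88A1 (-1.125), BGLU27 (-0.084) and BGLU44 (-0.584) in A. lyrata and UGT88A1 (-0.61) in A. halleri; by construction it lowers the values of both species against A. thaliana.

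Replicate numbers did not pair the arrays in general: over 10 pairs of groups the deviations correlated between -0.126 and 0.264. The 1 pair over 0.1 was A. thaliana with the lyrata hybrid (0.264), a parent and its hybrid. With the replicate number as a block the 7 counts were 23, 21, 5, 5, 1, 0 and 0, and 54 of 60 calls were kept. Each member had 1 probe set with a plain identifier, so both probe set alternatives left every value as it was.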

Other observations

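Several genes of the same families lay outside the naming rule, because their probe set is shared or their symbol is an older one, and they were chosen after their values were seen. The probe set shared by UGT73B2 and UGT73B3, which act in flavonoid glucosylation and defence, was at 1975 and 1327 in A. thaliana, 68.59 and 182.6 in A. lyrata, 932.8 and 516.9 in A. halleri, 60.63 and 145.7 in the lyrata hybrid and 335.7 and 484.1 in the halleri hybrid. A. lyrata and the lyrata hybrid overlapped each other far below the remaining groups. In limma's fit it was lower in A. lyrata than in A. thaliana (-3.74 ± 0.54, adjusted p = 0.00084), higher in A. halleri than in A. lyrata (2.53 ± 0.54, 0.0135) and below mid-parent in the lyrata hybrid (-3.07 ± 0.52, 0.0147), the hybrid in which UGT73B5 was also lowest.

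GT72B1, the current symbol of UGT72B1, which glucosylates monolignols and chlorinated pollutants, was at 2669 and 5477 in A. thaliana and 1288 and 1085 in A. lyrata (-1.69 ± 0.36, adjusted p = 0.00538). SGT, the sterol glucosyltransferase also named UGT80A2, was at 259.9 and 581.6 in A. thaliana, 1019 and 1062 in A. lyrata and 427.2 and 390.7 in A. halleri. It was higher in A. lyrata than in A. thaliana (1.40 ± 0.37, adjusted p = 0.0139) and lower in A. halleri than in A. lyrata (-1.33 ± 0.37, 0.0381). UF3GT, also named UGT79B1, which adds xylose to anthocyanins, was at 21.04 and 5444 in the A. thaliana arrays and between 41.86 and 414.1 on the other 8, and was not called in any comparison.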
